A study of Mus musculus with 12 samples.

Results

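The NRF2 pathway was followed through 10 genes of 24296 with a gene symbol in the table. They are the transcription factor gene Nfe2l2, its regulators Keap1 and Sqstm1, and the antioxidant target genes Hmox1, Nqo1, Gclc, Gclm, Gsr, Srxn1 and Txnrd1. The genes were taken by symbol, with no threshold on their values, and all 10 passed the filter on low values. They and the other gene lists below were chosen with earlier results of these data known. RNA was sequenced from 12 livers of male C57/BL6N mice, with 3 livers in each of 4 groups. The control group, labelled WT, is the group without CCl4. The model, silibinin and phloridzin groups received CCl4, a solvent that hepatocytes turn into reactive radicals and which leads to liver fibrosis. It was injected into the peritoneum, dissolved in a larger volume of olive oil, 2 times each week over 8 weeks. The dosage of 5 mL/kg is stated in the paper for CCl4 in this oil. Silibinin, a flavonolignan of milk thistle, or phloridzin, a glucoside of the dihydrochalcone phloretin, was given from week 5 on top of CCl4. The paper names the sequenced phloridzin livers as its high-dose group.

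Each value is in FPKM, which counts fragments relative to the length of the transcript and the size of the library, summed over the transcripts of a gene. The libraries held 105.2, 108.4 and 109.6 M fragments in the control group and 83.7, 101.5 and 100.1 M in the model group. They held 106.7, 110.9 and 110.1 M in the silibinin group and 102.1, 104.7 and 98.5 M in the phloridzin group. These depths were read from the steps between low values. Overlap between livers was judged on FPKM as given unless a scaling is named. The smallest number of fragments recovered for any of the 10 genes was 419, for Nqo1 in control liver 2, and the largest was 67235, for Gclc in phloridzin liver 1. The p-values rest on the spread between livers within groups, pooled over all 4 groups in the main fit. Phloridzin liver 1 thus enters the standard error of every comparison. For Nqo1 that error was 0.52 with it and 0.17 without it.

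NRF2, the protein of Nfe2l2, is held in the cytoplasm by KEAP1, an adaptor of the CUL3 ubiquitin ligase that marks it for degradation. Oxidants and electrophiles modify cysteines of KEAP1. NRF2 then accumulates, pairs with a small MAF protein in the nucleus and binds antioxidant response elements near its target genes. In the liver the pathway is known for making glutathione, reducing quinones, supplying NADPH and breaking down heme. NRF2 is controlled mainly through the stability of the protein, which was not measured here.

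Promoter sequences from RefSeq (GRCm38.p6) were matched for 7 of the 10 genes, with 9 promoters in all, because Txnrd1 has 3. Hmox1, Gclc and Gsr had no entry. Each promoter spans 300 bases, from 250 before the start of the gene to 50 after it. The core of the antioxidant response element, TGACNNNGC, and the AP-1 site, TGACTCA, were searched on both strands, and no match overlapped another. The core was found in 4 of the 9 promoters, beside 12.4% of all 32851 promoters (4071). The AP-1 site was found in the Srxn1 promoter, 2 times, and in no other of the 9, beside 5.2% of all promoters (1709). The Srxn1 promoter, chr2:152105274-152105573 on the plus strand, is shown whole because Srxn1 had the largest log2 fold change of the 10 genes between model and control. The other cores are shown with up to 20 bases on each side, at chr2:75704875-75704913 on the minus strand for Nfe2l2, chr3:122245403-122245451 on the plus strand for Gclm, and chr10:82859094-82859142 on the plus strand for the second promoter of Txnrd1. Each sequence runs 5′ to 3′ along its gene, and capitals mark the motif matches.
Srxn1 promoter: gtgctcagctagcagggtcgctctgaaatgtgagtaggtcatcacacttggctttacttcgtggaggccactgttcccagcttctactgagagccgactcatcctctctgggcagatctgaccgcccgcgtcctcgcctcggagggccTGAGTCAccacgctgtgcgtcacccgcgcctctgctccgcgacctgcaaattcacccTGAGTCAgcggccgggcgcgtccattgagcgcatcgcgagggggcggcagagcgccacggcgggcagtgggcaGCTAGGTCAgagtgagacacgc
Nfe2l2 window: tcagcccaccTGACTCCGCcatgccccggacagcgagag
Gclm window: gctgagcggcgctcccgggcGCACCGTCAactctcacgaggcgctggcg
Txnrd1 window: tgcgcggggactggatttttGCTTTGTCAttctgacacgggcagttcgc
In Srxn1 the AP-1 sites begin at -102 and -45, and the core lies on the opposite strand, with its left end at 28, after the start of the gene. The core is also on the opposite strand in Gclm and Txnrd1. The most abundant Txnrd1 transcript, with 86.7% of the mean FPKM of the gene, starts in the third Txnrd1 promoter, where no match was found. The Nqo1, Keap1 and Sqstm1 promoters held no match either. The most abundant Keap1 transcript, with 61.7% of the mean FPKM of the gene, starts outside the Keap1 promoter searched. A match is a description of the letters in these windows and does not show binding.

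Phloridzin liver 1 stood apart from the other livers in the genes described here. Of the 10 members, 6 had their highest value of all 12 livers in it (Srxn1, Gclc, Nqo1, Txnrd1, Gsr and Keap1), beside 19.5% of all 13158 genes tested. Gclm went the other way, with its lowest FPKM of the 12 livers there, although model liver 3 had fewer recovered Gclm fragments (4236 against 5742). Srxn1 was at 159 FPKM in phloridzin liver 1, which is 11.27 times the mean of phloridzin livers 2 and 3 (14.1). The same ratio was 6.24 for Gclc, 6.07 for Nqo1, 3.28 for Txnrd1 and 3.23 for Gsr. In Hmox1 it was 1.35 and in Gclm 0.32. The median log2 difference between phloridzin liver 1 and the mean of the other livers of its group was 1.47 over the 10 members and 0.17 over all genes tested.

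The liver was also the highest of the 12 for most related enzymes. This held for 12 of 15 glutathione genes, 9 of 12 genes of detoxification and carbonyl reduction and 5 of 6 NADPH-producing enzymes. Gstm3, a glutathione transferase, was at 564 FPKM there, against 58.8 and 43.4 in phloridzin livers 2 and 3. Cbr3, a carbonyl reductase, was at 64.7 there, against 1.80 and 1.60. Pgd, an enzyme of the pentose phosphate pathway, was at 78.2, against 8.84 and 8.46. The partners and regulators of NRF2 (0 of 10 genes) and the genes of the integrated stress response (0 of 13) did not have their highest value in it. Thioredoxin and peroxiredoxin genes did in 4 of 10, heme and iron genes in 3 of 8, and Kupffer cell and macrophage markers in 7 of 10, with a median log2 difference of 0.49. Scar-associated macrophage markers did in 3 of 6, with a median of 1.21, and stellate cell markers in 2 of 7, with a median of 0.57. None of the 7 hepatocyte markers had its highest value there, and their median log2 difference was -0.23. Over the genes tested its values correlated with those of phloridzin livers 2 and 3 at r = 0.922 and 0.918. The other pairs of livers within a group lay between 0.937 and 0.954, and genes are not independent replicates. What sets this liver apart was not tested. Each phloridzin comparison is given with it and without it. Leaving out each liver was planned, but this liver was singled out after the values were seen.

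**Figure D1:**
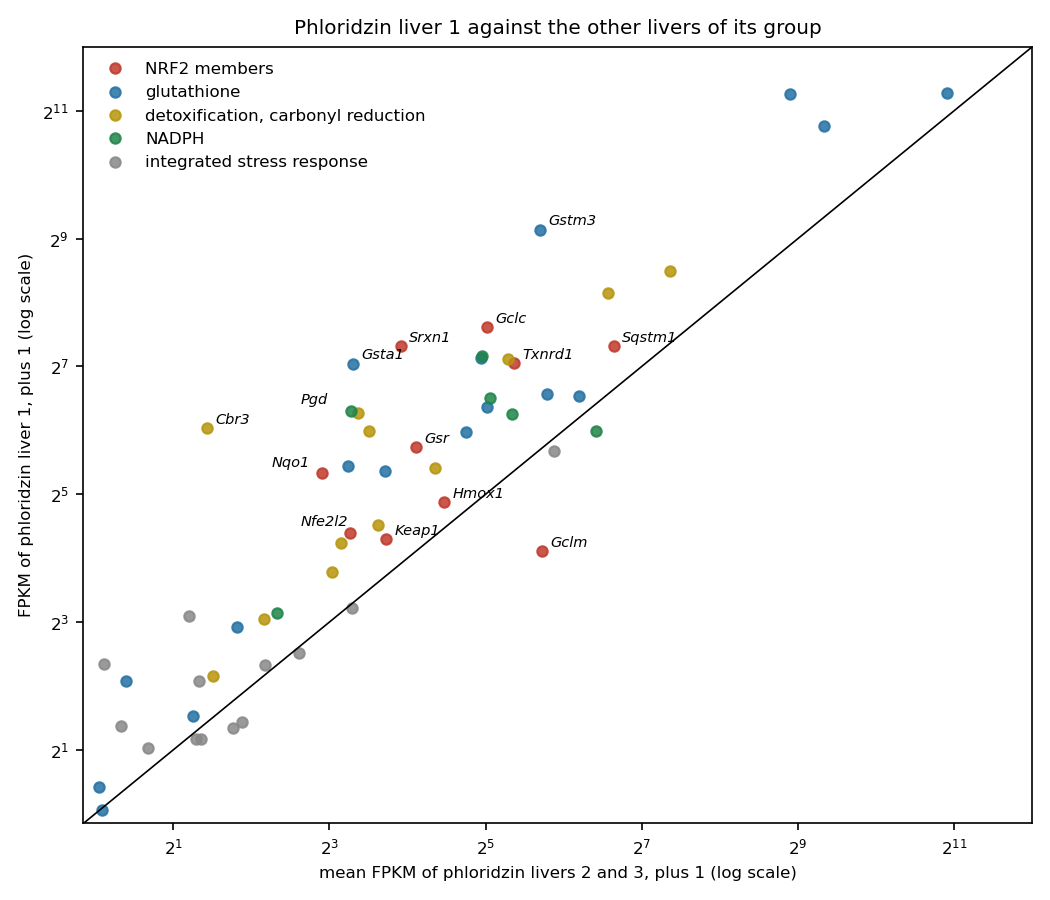
FPKM of phloridzin liver 1 (vertical axis) against the mean of phloridzin livers 2 and 3 (horizontal axis), both plus 1 and on log scales, for the NRF2 members and 4 related gene lists, with the line of equal values. Srxn1 lies 11.27 times, Gclc 6.24 times and Nqo1 6.07 times above the mean of the other livers, Gclm lies below the line at a ratio of 0.32, and the integrated stress response genes lie on both sides of it with a median log2 difference of -0.04.

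Nfe2l2 (chromosome 2, minus strand) encodes NRF2 itself. It was at 8.40, 8.00 and 8.11 FPKM in the control livers, 17.3, 25.8 and 8.48 in the model livers, 11.6, 18.9 and 5.03 in the silibinin livers and 20.1, 4.77 and 12.5 in the phloridzin livers. The control livers were close together, every other group spread widely, and model liver 3 was barely above the controls. Keap1 (chromosome 9, minus strand), the inhibitor, ranged only from 11.0 FPKM in phloridzin liver 3 to 18.6 in phloridzin liver 1. Its 3 model livers (14.6, 15.0 and 18.3) were above its 3 control livers (13.3, 13.2 and 12.3). Sqstm1 (chromosome 11, minus strand) encodes p62, which binds KEAP1 and carries it to autophagy. It had the highest mean of the 10 members, 122 FPKM, and ranged from 46.2 in silibinin liver 1 to 170.2 in model liver 1. Its values overlapped between all groups.

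The makeup of Sqstm1 varied between livers more than its sum did. The transcript ENSMUST00000102774 held 93.8% of the sum in control liver 3 and 2.7% in model liver 1. In model liver 1 the longer transcript ENSMUST00000015981 was at 145 FPKM, against 8.29 in control liver 1. Model liver 3 was at 7.95 for the same transcript, so the model livers did not share a makeup. With the most abundant transcript alone the log2 fold change of Sqstm1 between model and control was -1.45, against 0.39 for the sum. How far this reflects the assignment of fragments to overlapping transcripts was not tested.

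Hmox1 (chromosome 8, plus strand) encodes heme oxygenase 1, which opens the heme ring and releases iron, carbon monoxide and biliverdin. It was at 16.5, 10.7 and 10.2 FPKM in the control livers and 32.3, 60.6 and 50.6 in the model livers. In the silibinin livers it was at 14.4, 14.9 and 24.8, and in the phloridzin livers at 28.5, 25.8 and 16.4. All model livers were above every liver of the other 3 groups. The silibinin and phloridzin livers overlapped each other and the controls. A single transcript held at least 97.4% of the Hmox1 sum in every liver.

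Nqo1 (chromosome 8, minus strand) encodes a quinone reductase and is widely read as a marker of NRF2 activity. It had the lowest mean over all livers of the 10 members, although not the lowest value in every liver. It was at 4.10, 2.49 and 3.36 FPKM in the control livers, 5.38, 5.20 and 5.55 in the model livers, 5.70, 6.87 and 6.40 in the silibinin livers and 39.3, 7.11 and 5.83 in the phloridzin livers. Every liver given CCl4 was above every control liver, and the silibinin and phloridzin livers were all above the model livers. With median ratio scaling control liver 1 was slightly above the model livers. The silibinin and phloridzin livers stayed above both groups on that scale. Phloridzin liver 1 was far above the rest.

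Gclc (chromosome 9, plus strand) and Gclm (chromosome 3, plus strand) encode the catalytic and the modifier subunit of glutamate-cysteine ligase, the rate-limiting enzyme of glutathione synthesis. Gclc was at 29.1, 40.5 and 46.7 FPKM in the control livers, 19.1, 93.2 and 57.0 in the model livers, 15.6, 63.4 and 23.6 in the silibinin livers and 196, 37.1 and 25.7 in the phloridzin livers. Gclc overlapped between all groups, with model liver 1 below the controls and model livers 2 and 3 above them. Gclm was at 36.5, 54.3 and 29.6 FPKM in the control livers, 37.5, 47.0 and 20.3 in the model livers, 46.7, 44.4 and 64.8 in the silibinin livers and 16.3, 50.2 and 53.2 in the phloridzin livers. Gclm overlapped between all groups too. The ratio of Gclc to Gclm was between 0.33 (silibinin liver 1) and 2.81 (model liver 3) in 11 livers and 12.01 in phloridzin liver 1. The 2 subunits thus did not follow each other across livers. The main Gclm transcript held 96.8% of the sum in control liver 2 and 27.4% in model liver 3, and the pseudogene Gm6061, which shares 244 exon bases with Gclm on the same strand, ranged from 3.45 FPKM in control liver 3 to 42.1 in phloridzin liver 1. It was also high in model liver 2 (32.7), silibinin liver 3 (33.5) and phloridzin livers 2 and 3 (29.8 and 28.6). The Gclm sum is uncertain to that extent.

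Gsr (chromosome 8, plus strand) encodes glutathione reductase, which turns oxidized glutathione back with NADPH. It was at 14.3, 11.6 and 16.1 FPKM in the control livers, 25.6, 22.6 and 24.0 in the model livers, 11.1, 21.0 and 16.8 in the silibinin livers and 52.6, 20.4 and 12.1 in the phloridzin livers. The model livers were all above the control and silibinin livers, and the phloridzin livers lay on both sides of them. A noncoding transcript, NONMMUT065156.2, lies over 915 exon bases of Gsr on the same strand, so fragments of the pair could be split between them. It was at 31.5, 26.8 and 29.7 FPKM in the control livers, 6.86, 52.7 and 43.2 in the model livers, 23.7, 7.20 and 35.7 in the silibinin livers and 99.3, 9.28 and 26.4 in the phloridzin livers. It was highest in phloridzin liver 1, as Gsr was, and overlapped between all groups.

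Srxn1 (chromosome 2, plus strand) encodes sulfiredoxin, which repairs overoxidized peroxiredoxins. It was at 12.1, 15.2 and 16.5 FPKM in the control livers, 27.1, 134 and 137 in the model livers, 19.0, 12.9 and 17.2 in the silibinin livers and 159, 14.0 and 14.2 in the phloridzin livers. Srxn1 was high in only 3 of the 12 livers, namely model livers 2 and 3 and phloridzin liver 1. Model liver 1 was nearer to the controls, although above them. Txnrd1 (chromosome 10, plus strand) encodes thioredoxin reductase 1 of the cytosol, which keeps thioredoxin reduced. It was at 47.7, 45.3 and 47.4 FPKM in the control livers, 61.5, 97.5 and 92.2 in the model livers, 43.1, 45.6 and 49.5 in the silibinin livers and 132, 39.9 and 40.8 in the phloridzin livers. The same 3 livers were highest for Txnrd1 as for Srxn1. Control and silibinin livers lay together within a few FPKM, below every model liver.

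**Figure D2:**
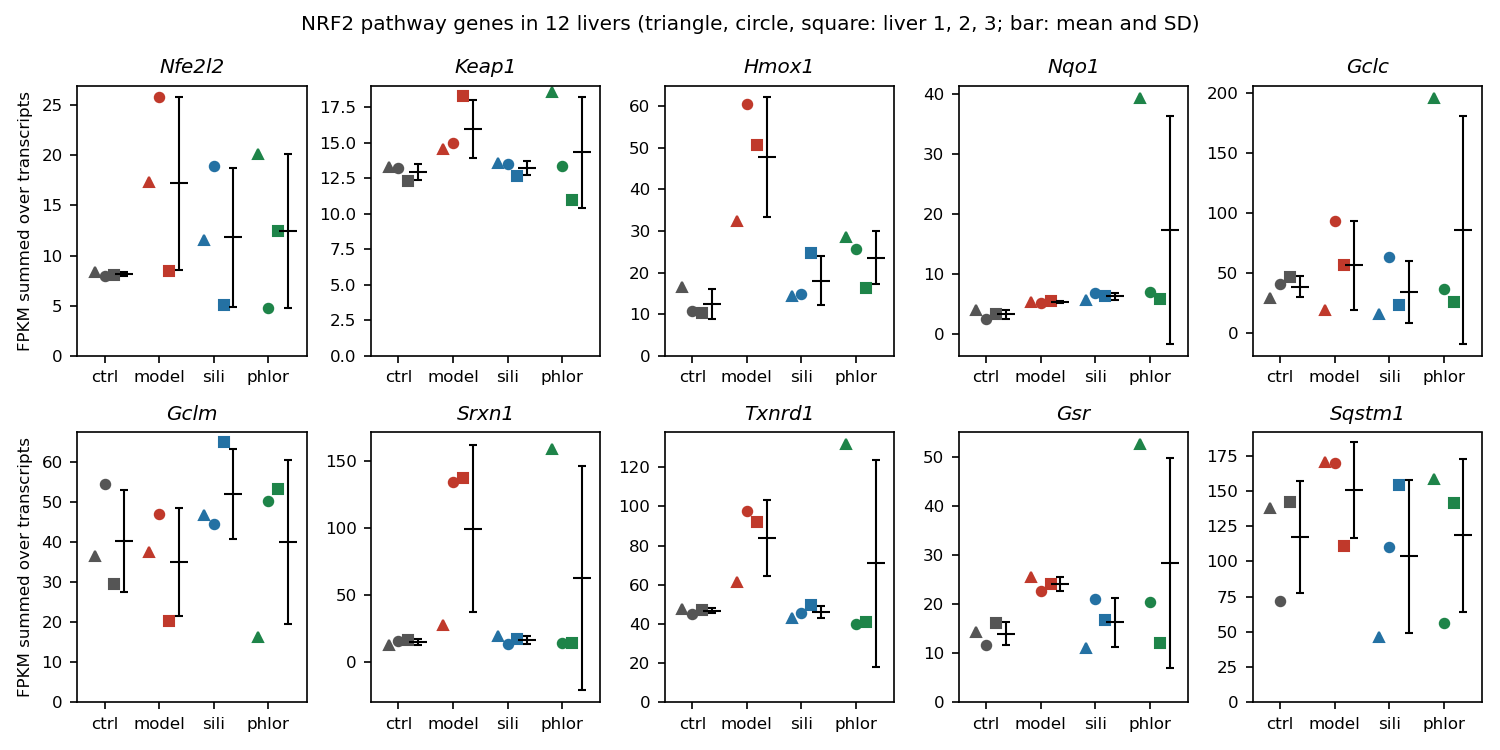
FPKM of the 10 members in each of the 12 livers, 1 panel for each gene, with a point for each liver and a bar for the mean and SD of its group. Hmox1 is highest in the 3 model livers (32.3 to 60.6 FPKM), Srxn1 in model livers 2 and 3 and phloridzin liver 1 (134, 137 and 159), and Nqo1 in phloridzin liver 1 (39.3).

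The comparison of model with control livers asks what CCl4 did. Hmox1 rose from 12.5 ± 3.53 FPKM (SD, n = 3) to 47.9 ± 14.4 (n = 3), and it was the only member that passed the test. Maff and Mafk, which encode small MAF partners of NRF2, rose as well. So did Slc7a11, the cystine carrier that feeds glutathione synthesis, and the conjugation enzyme Gsta1. Srxn1 had the largest difference of the 10 members, 14.6 ± 2.23 against 99.5 ± 62.8, and did not pass in the fit of all 4 groups. Nfe2l2, Keap1, Nqo1, Txnrd1 and Gsr were higher in every model liver than in every control liver without passing it, on FPKM as given. With median ratio scaling the livers of both groups overlapped for each of these genes.

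The log2 fold change of Hmox1 was 1.84 (SE 0.30, limma, Benjamini-Hochberg adjusted p = 0.0014), on the scale of log2(FPKM + 1). A gene was called when its adjusted p was smaller than 0.05 and its log2 fold change lay beyond 1 in either direction. Over the alternatives the adjusted p of Hmox1 was 4.5e-04 to 0.0099. By this rule 1 of 10 members was called, beside 10.5% of the 13158 genes tested, a share close to the background. Livers of the groups did not overlap for 7 of 10 members, beside 52.0% of all genes tested. That count is on FPKM as given. Median ratio scaling divides control livers by 0.811 to 0.874 and model livers by 1.156 to 1.210. Of these 7 members only Hmox1 and Srxn1 stayed without overlap on that scale, where the share of all genes was not counted. For Srxn1 the log2 fold change was 2.38 (SE 0.85, adjusted p = 0.052). It passed without model liver 1 (3.14, adjusted p = 0.023), when only model and control livers were fitted (2.38, adjusted p = 0.028), and with the same total in every liver (2.59, adjusted p = 0.024), with a range of 0.023 to 0.15 over the alternatives. Model liver 1 had the lowest Srxn1 of its group (27.1 FPKM), so leaving it out enlarges this difference by construction. Txnrd1 was at 0.80 (adjusted p = 0.13), and at 1.01 (adjusted p = 0.036) with the same total, with a range of 0.023 to 0.54. Nfe2l2 was at 0.86 (adjusted p = 0.23) and Keap1 at 0.28 (0.21), with ranges of 0.11 to 0.57 and 0.026 to 0.71. Nqo1 was at 0.58 (adjusted p = 0.41) and Gsr at 0.75 (0.18), with ranges of 0.039 to 0.8 and 0.011 to 0.61. The log2 fold changes of Keap1, Nqo1 and Gsr stayed under the threshold of 1 in every alternative.

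The direction of the weaker members depended on the scaling. All genes tested had a median log2 fold change of 0.34, and the members 0.66. Of the called genes, 1240 were higher and 142 lower. After median ratio scaling of the livers the split was 493 higher and 480 lower, the median of all genes -0.01 and that of the members 0.25. Hmox1 stayed called on that scale (1.39, adjusted p = 0.0099). Keap1 went from 0.28 to -0.16, Gclc from 0.29 to -0.17 and Sqstm1 from 0.39 to -0.08, while the other 7 members kept their sign.

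Among the 10 partners and regulators of NRF2, 2 rose and 0 fell. Maff was at 1.04, 1.10 and 0.437 FPKM in the control livers and 7.28, 12.5 and 10.6 in the model livers. Its groups were far apart, with a log2 fold change of 2.57 (SE 0.19, limma, adjusted p = 2.2e-05). Mafk had 1.32 (adjusted p = 2.9e-04), and 0.90 with median ratio scaling, which is under the fold threshold. Of 15 glutathione genes tested, 5 rose and 0 fell. They were Gsta1 (4.10), Slc7a11 (2.90), the exporters Abcc4 (2.61) and Abcc1 (1.31), and glutathione synthetase Gss (1.12, and 0.66 with median ratio scaling, adjusted p = 0.11). With median ratio scaling 4 glutathione genes rose and 1, Abcc3, fell. Gpx2 and Ggt1 were under the filter. Slc7a11 was at 0.0240, 0 and 0.00792 FPKM in the control livers and 5.21, 8.51 and 6.20 in the model livers, so it was close to 0 in all controls and in no model liver.

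Of 12 genes of detoxification and carbonyl reduction, 1 rose (Akr1b3, an aldose reductase, 1.35, adjusted p = 0.013, and 0.93 with median ratio scaling). None of the 6 NADPH-producing enzymes passed by limma, with a median of 0.96, while 3 did with the same total in every liver (Me1, G6pdx and Tkt). With FPKM as given limma did not call any of the 10 thioredoxin and peroxiredoxin genes (0.11, and -0.36 with median ratio scaling) or the 11 genes of selective autophagy (-0.18). Of 8 heme and iron genes, 1 rose (Alas1, the first enzyme of heme synthesis, 1.06, adjusted p = 0.033). The Alas1 call was lost with any liver left out other than control liver 1, with a log2 fold change of 0.63 without control liver 2 and of 0.96 to 1.15 without the others (adjusted p from 0.056 to 0.096), and with median ratio scaling (0.61). The integrated stress response, whose factor ATF4 shares Slc7a11 as a target with NRF2, rose in 11 of 13 genes, among them Atf3 (5.14), Ddit3 (3.32) and Trib3 (3.27), and in 9 with median ratio scaling. That scaling also turned the medians of the heme and iron genes (0.31 to -0.13), hepatocyte markers (0.04 to -0.44) and sinusoidal endothelial markers (0.20 to -0.22) negative.

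Markers of other cells moved in the same comparison. The 6 markers of scar-associated macrophages all rose, with sums of 30.3, 21.7 and 33.0 FPKM in the control livers and 125, 153 and 186 in the model livers, and Spp1 as the most abundant. Of these Lgals3 (2.53) lost the call without any liver other than model liver 1 (2.19 to 2.57, adjusted p from 0.071 to 0.099). Its call was also lost with median ratio scaling (2.12, adjusted p = 0.068). Cd9 was under the fold threshold on that scale (0.96). Of 7 markers of stellate cells and myofibroblasts, 4 rose, among them Col1a1 (4.35) and Col1a2 (1.52). The Col1a2 call was lost without control liver 2 or 3 or model liver 1 (1.02 to 1.51, adjusted p from 0.054 to 0.061). The sums of the 7 stellate cell markers were 71.4, 66.2 and 76.5 FPKM in the control livers and 218, 213 and 247 in the model livers, with Dcn as the most abundant. None of the 10 Kupffer cell and macrophage markers was called by limma (median 0.82), while 6 rose with the same total in every liver, the scaling that also added Srxn1 and Txnrd1. They summed to 168, 264 and 227 FPKM in the control livers and 287, 489.7 and 377 in the model livers, with Cd5l as the most abundant. None of the 7 hepatocyte, 2 cholangiocyte, 6 sinusoidal endothelial and 5 erythroid markers tested was called by limma. With median ratio scaling 2 hepatocyte markers (Serpina1b and Apoa2) and 1 erythroid marker (Hba-a1) fell. No marker was at 0 in all livers. Of 8 genes of hepatocytes near the central vein, 4 fell (Slc1a2, Oat, Glul and Cyp2e1), and 6 with median ratio scaling. Macrophages and pericentral hepatocytes express NRF2 targets, and in RNA of whole liver more cells of a type cannot be told apart from more RNA per cell. The part of these cells in the rise of Hmox1 was not tested.

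**Figure D3:**
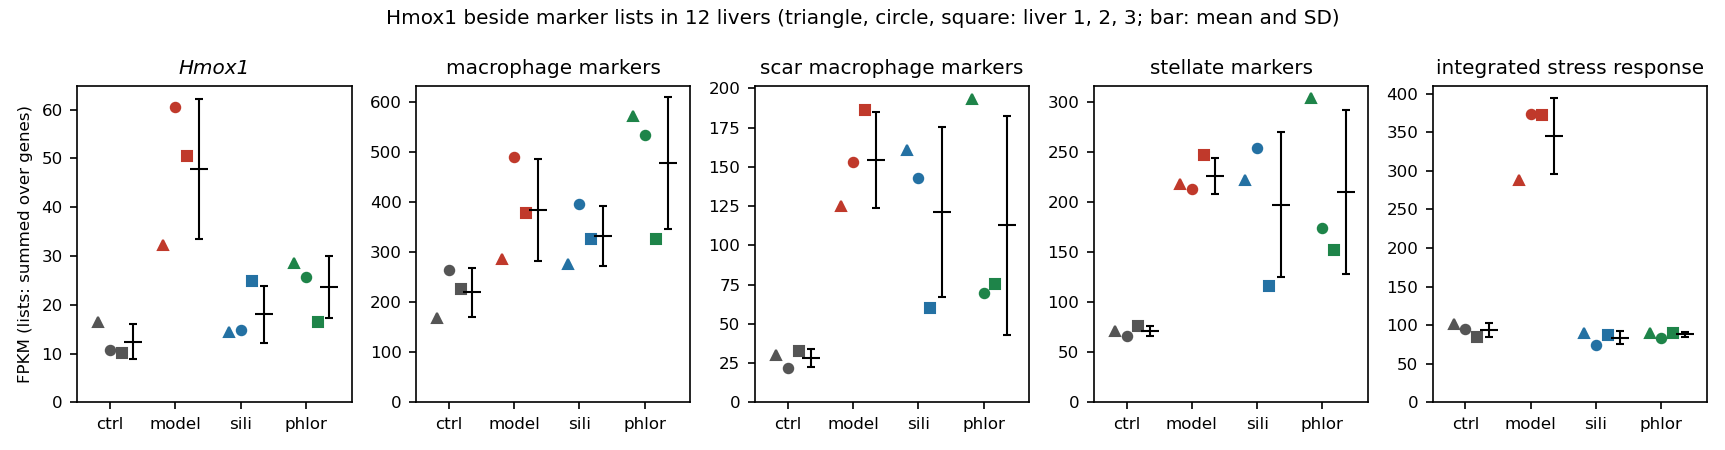
FPKM of Hmox1 in each of the 12 livers beside the summed FPKM of lists for Kupffer cells and macrophages, scar-associated macrophages, stellate cells and the integrated stress response, with the mean and SD of each group. Hmox1 is highest in the 3 model livers (32.3 to 60.6 FPKM), while the Kupffer cell sum is highest in phloridzin livers 1 and 2 (571 and 534) and the scar-associated sum in phloridzin liver 1 (193).

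The comparison of silibinin with model livers asks what silibinin did to livers that went on receiving CCl4. Hmox1 fell from 47.9 ± 14.4 FPKM to 18.0 ± 5.85 (SD, n = 3 each), with all silibinin livers below all model livers. Maff fell to 0.866, 0.884 and 1.01 FPKM, close to the level of the controls. Slc7a11 fell to 0.128, 0.0196 and 0.194. Srxn1, Txnrd1, Keap1 and Gsr were lower in every silibinin liver than in every model liver without passing the test. Nqo1 was higher in every silibinin liver. With median ratio scaling Txnrd1 and Keap1 overlapped between these groups.

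The log2 fold change of Hmox1 was -1.36 (SE 0.30, limma, adjusted p = 0.015). It made up the 1 called member of 10, beside 4.0% of all genes tested. The Hmox1 call was lost without model liver 2 (-1.16, adjusted p = 0.06), silibinin liver 1 (-1.22, adjusted p = 0.058) or silibinin liver 2 (-1.25, adjusted p = 0.052), and it held with median ratio scaling (-1.14, adjusted p = 0.041). Over the alternatives its adjusted p was 0.0099 to 0.06. Srxn1 had -2.23 (SE 0.85, adjusted p = 0.11), Txnrd1 -0.82 (adjusted p = 0.18) and Gclm 0.62 (adjusted p = 0.4). Of the 10 members, 8 had a negative log2 fold change, with a median of -0.62, beside -0.15 over all genes tested. Silibinin and model livers did not overlap for 6 members, beside 36.7% of all genes. The called genes were 98 higher and 428 lower, and 188 higher and 237 lower with median ratio scaling, where the median of all genes was 0.01 and no member changed sign.

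In the lists, 2 of 10 partners fell, Maff (-2.50) and Mafk (-1.53), as did 2 of 15 glutathione genes, Slc7a11 (-2.76) and Abcc4 (-2.17). Gsta1, which rose with CCl4, was at 5.49, 4.43 and 12.4 FPKM in the silibinin livers and did not pass. By limma 0 of 12 detoxification genes, 0 of 6 NADPH-producing enzymes, 0 of 10 thioredoxin genes and 0 of 8 heme and iron genes were called. The integrated stress response fell in 11 of 13 genes, with Atf3 at -4.05. None of the 6 scar-associated markers was called by limma (median -0.43), with sums of 161, 143 and 59.9 FPKM, and none of the 10 Kupffer cell markers (median -0.17), with sums of 276, 395 and 326. Silibinin liver 3 had the lowest scar-associated sum and the highest Hmox1 of its group. Model liver 1 had the lowest of both in its group (125 and 32.3 FPKM). Phloridzin liver 1 had the highest of both in its group (193 and 28.5 FPKM). The part of these cells in the fall of Hmox1 was not tested. Of 7 hepatocyte markers, 1 rose (Serpina1b, 2.67, adjusted p = 0.038). That call was lost without model liver 2 or 3 or silibinin liver 1 or 3 (2.27 to 2.52, adjusted p from 0.11 to 0.13).

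The comparison of phloridzin with model livers asks the same of phloridzin, and its result turns on phloridzin liver 1. Hmox1 was at 23.6 ± 6.36 FPKM in the phloridzin livers and 47.9 ± 14.4 in the model livers (SD, n = 3 each), with no overlap. It did not pass the test in all livers. Srxn1 and Txnrd1 were low in phloridzin livers 2 and 3 and high in phloridzin liver 1, so their calls depend on whether that liver is included. Maff and Slc7a11 fell with and without it.

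With all livers 0 of 10 members were called by limma, beside 3.52% of all genes. An unadjusted p under 0.05 was found for 1 member, beside 3662 of all genes. By voom of limma on recovered fragments 1 member was called, beside 808 of all genes. The gene in each case was Hmox1, with a log2 fold change of -0.98 (SE 0.30, adjusted p = 0.06), and -1.09 by voom (adjusted p = 0.039). Hmox1 was also called without model liver 1 (-1.23, adjusted p = 0.038) and with the same total in every liver (-1.10, adjusted p = 0.031), with a range of 0.031 to 0.18 over the alternatives. Model liver 1 had the lowest Hmox1 of its group (32.3 FPKM), so leaving it out enlarges the difference by construction. Phloridzin and model livers did not overlap for 2 members, beside 30.6% of all genes. Hmox1 was lower with phloridzin and Nqo1 higher. Without phloridzin liver 1 this count was 7, beside 48.1% of all genes. It added Keap1, Srxn1, Txnrd1 and Gsr, which were lower, and Gclm, which was higher. Nqo1 had a log2 fold change of 1.04 with all livers (SE 0.52, limma, adjusted p = 0.23). Without phloridzin liver 1 it was 0.22 (SE 0.17, adjusted p = 0.41). With all livers the median over the members was -0.31, beside -0.11 over all genes. The called genes were 79 higher and 384 lower, and 140 higher and 238 lower with median ratio scaling, where Gsr went from -0.02 to 0.16 and Keap1 from -0.17 to 0.00.

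Without phloridzin liver 1, 2 of 10 members were called, beside 4.85% of all genes. High Srxn1 and Txnrd1 were among the values that set this liver apart, so leaving it out lowers both by construction, and the values below describe the remaining livers. Srxn1 and Txnrd1 were lower in both remaining phloridzin livers than in every model liver, with log2 fold changes of -2.42 (SE 0.58, limma, adjusted p = 0.022) and -1.01 (SE 0.18, adjusted p = 0.0065). With all livers the same values were -1.28 (adjusted p = 0.37) and -0.44 (adjusted p = 0.5). Leaving out that liver and scaling by median ratios together, an alternative chosen after the data were seen, gave -2.17 for Srxn1 (adjusted p = 0.047) and -0.76 for Txnrd1 (adjusted p = 0.044), which is under the fold threshold. Over the alternatives the adjusted p ran from 0.022 to 0.7 for Srxn1 and from 0.0065 to 0.86 for Txnrd1. Hmox1 was at -1.13 without the liver (adjusted p = 0.051). The median over the members became -0.65, beside -0.18 over all genes, and Gclc went from 0.29 to -0.59.

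In the lists, 2 of 10 partners fell, Maff (-2.49) and Mafk (-1.13, and -0.95 with median ratio scaling), and 2 of 15 glutathione genes, Slc7a11 (-2.74) and Abcc4 (-1.52). By limma 0 of 6 NADPH-producing enzymes were called with all livers, and 2 were called lower without phloridzin liver 1, Pgd and Me1. Both were highest in the liver left out, so this too follows in part from leaving it out. Pgd was at 22.0, 34.4 and 16.1 FPKM in the model livers and 8.84 and 8.46 in phloridzin livers 2 and 3. Me1, malic enzyme, was at 59.5, 76.4 and 77.2 in the model livers and 35.5 and 24.5 in phloridzin livers 2 and 3. Both were lower in these 2 livers than in any model liver and higher in phloridzin liver 1 (78.2 and 142). The integrated stress response fell in 11 of 13 genes with and without the liver. The sums of scar-associated markers were 193, 70.0 and 75.3 FPKM in the phloridzin livers and those of Kupffer cell markers 571, 534 and 326, with 0 of 6 and 0 of 10 called by limma. Of the 8 pericentral genes, 1 was called with all livers, 2 without phloridzin liver 1 (Slc1a2 and Oat) and 2 with median ratio scaling (Oat and Glul). Oat rose (1.64, adjusted p = 0.036), which held only without phloridzin liver 1 among the fits that left out a liver. In the others its log2 fold change was 1.29 to 1.73 (adjusted p from 0.065 to 0.13).

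The direct comparison of phloridzin with silibinin livers asks whether the drugs differed. No member passed the test. With all livers 0 members were without overlap, beside 7.99% of all genes. There was 1 without phloridzin liver 1, Txnrd1, lower in both remaining phloridzin livers than in every silibinin liver, beside 21.0% of all genes. Hmox1 was at 23.6 ± 6.36 FPKM with phloridzin and 18.0 ± 5.85 with silibinin, and these livers overlapped. Nqo1, Gclc, Srxn1, Txnrd1 and Gsr had higher means with phloridzin, carried by phloridzin liver 1. By limma 0 of 10 members were called, beside 0.0228% of all genes (3), 0 had an unadjusted p under 0.05, and voom called 0. Without phloridzin liver 1 limma again called 0 members, beside 0.0456% of all genes (6), and 0 had an unadjusted p under 0.05. The count of all genes called was 5 without silibinin liver 1 or phloridzin liver 2 and 1 without silibinin liver 2. The log2 fold change of Hmox1 was 0.37 (SE 0.30) and that of Srxn1 0.95 (SE 0.85), which became -0.19 (SE 0.58) without phloridzin liver 1. The median over the members went from 0.38 to -0.03, beside 0.03 and -0.03 over all genes. A difference of the size of these standard errors would not have been seen. None of the lists had a called gene by limma in this comparison, and the 3 genes called, Klhdc7a, Pcgf6 and Wdr89, are outside the pathway and were named after their values were seen.

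The comparisons of the treated livers with the controls ask how far the pathway stood from its level without CCl4. In the silibinin livers Hmox1, Srxn1, Txnrd1 and Gsr overlapped with the controls, and Nqo1 was the only member with all livers above them, at 6.32 ± 0.591 FPKM against 3.32 ± 0.807 (SD, n = 3 each). This is 1 of 10 members without overlap, beside 30.4% of all genes. By limma 0 of 10 members were called, beside 1.98% of all genes, 0 had an unadjusted p under 0.05, and voom called 0. Nqo1 had a log2 fold change of 0.78 (SE 0.52, adjusted p = 0.43) and Hmox1 0.49 (SE 0.30, adjusted p = 0.39). Over the alternatives the adjusted p of Nqo1 was 0.056 to 0.64. The median over the members was 0.16, equal to that over all genes, and -0.08 with median ratio scaling. The genes called were 229 higher and 32 lower, and 142 higher and 57 lower with median ratio scaling, where Keap1 (0.04 to -0.20), Srxn1 (0.15 to -0.09) and Gsr (0.18 to -0.07) changed sign. Their count of 261 was 136 without control liver 1, 155 without control liver 2, 101 without silibinin liver 1 and 102 without silibinin liver 2. In the lists of the pathway 0 genes were called by limma, and of the 13 integrated stress response genes 1 rose, Atf3 (1.09, adjusted p = 0.034). The Atf3 call was lost with any liver left out other than silibinin liver 3 (0.94 to 1.12, adjusted p from 0.087 to 0.14). The scar-associated markers Gpnmb, Trem2 and Cd9 rose. Cd9 (1.03) lost the call without any liver other than silibinin liver 3 (0.83 to 1.14, adjusted p from 0.06 to 0.14). Its call was also lost with median ratio scaling (0.80, adjusted p = 0.069). Col1a1 (3.90) and Col3a1 (3.48) rose and Slc1a2 (-4.48), Oat (-3.51) and Glul (-2.60) fell, with any liver left out. Hba-a1 fell (-1.48), a call lost with any liver left out other than control liver 2 (-1.69 to -1.09, adjusted p from 0.061 to 0.12).

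In the phloridzin livers Nqo1 was again the only member with every liver above the controls, 1 of 10 without overlap beside 29.8% of all genes. Txnrd1 was also apart without phloridzin liver 1, lower in both remaining livers than in every control liver, beside 38.6% of all genes. Nqo1 was at 17.4 ± 18.9 FPKM with phloridzin liver 1, and the mean of the other livers was 6.47. Hmox1 overlapped with the controls through phloridzin liver 3, which was at 16.4 beside 16.5 in control liver 1. By limma 0 of 10 members were called, beside 3.02% of all genes, and voom called 0. An unadjusted p under 0.05 was found for 2 members (Hmox1 and Nqo1), beside 3235 of all genes. Without phloridzin liver 1 limma called 0 members, beside 1.86% of all genes. Then 1 member, Nqo1, had an unadjusted p under 0.05, beside 2592 of all genes. Nqo1 had a log2 fold change of 1.61 (SE 0.52, adjusted p = 0.085). It was 0.80 without phloridzin liver 1 (SE 0.17, adjusted p = 0.034), under the fold threshold, and it was called without phloridzin liver 3 (2.08, adjusted p = 0.036) and with the same total in every liver (1.68, adjusted p = 0.049), with a range of 0.034 to 0.24 over the alternatives. Hmox1 had 0.86 (SE 0.30, adjusted p = 0.11). The median over the members was 0.47 with phloridzin liver 1 and -0.05 without it, beside 0.18 and 0.14 over all genes.

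Of 15 glutathione genes, 5 rose with all livers (Gstm3, Gsta1, Gsta2, Gsta4 and Abcc4) and 1 without phloridzin liver 1 (Gsta1). Gsta1 was at 0.282, 1.72 and 0 FPKM in the control livers and 131, 9.76 and 8.04 in the phloridzin livers. All phloridzin livers were above all controls, with a log2 fold change of 3.95 (SE 0.88, limma, adjusted p = 0.025). The Gsta1 call was lost without control liver 1 (3.83, adjusted p = 0.08) or control liver 3 (3.65, adjusted p = 0.081). The other 4 calls were lost without control liver 1 or 3 or phloridzin liver 1, and some without other livers too. Their log2 fold changes without phloridzin liver 1 went from 4.46 to 3.31 for Gstm3 (adjusted p = 0.11), 2.32 to 1.76 for Gsta2 (0.15), 1.54 to 1.08 for Gsta4 (0.12) and 1.08 to 0.72 for Abcc4 (0.048). Without control liver 1 they were 4.58, 1.88, 1.55 and 1.19 (adjusted p from 0.072 to 0.15). Of 10 Kupffer cell markers, 5 rose with all livers (Marco, Adgre1, Cd5l, C1qa and C1qb), 7 with the same total in every liver, and 0 by limma with median ratio scaling or without phloridzin liver 1. All 5 calls were also lost without control liver 1 or 3 or phloridzin liver 2. Without phloridzin liver 1 the log2 fold changes went from 3.27 to 3.58 for Marco, 1.09 to 0.92 for Adgre1, 1.09 to 0.96 for Cd5l, 1.07 to 0.93 for C1qa and 1.01 to 0.76 for C1qb (adjusted p from 0.065 to 0.13). Calls of Gpnmb, Trem2, Col1a1, Col3a1 and Krt19, which rose, and of Slc1a2, Oat, Glul and Cyp2e1, which fell, held with any liver left out. Atf3 rose (1.19), a call lost without phloridzin liver 1 (0.94, adjusted p = 0.05) or any control liver (1.16 to 1.22, adjusted p from 0.053 to 0.066). Cd9 rose (1.02), a call lost without phloridzin liver 1 (0.84) or 2 (1.04), control liver 1 (1.10) or 2 (0.82), or with median ratio scaling (0.76), with adjusted p from 0.063 to 0.093. Hba-a1 fell (-1.46), a call lost without control liver 1 or 3 or phloridzin liver 2 or 3 (-1.39 to -1.24, adjusted p from 0.061 to 0.1). The called genes were 360 higher and 38 lower, and 178 higher and 64 lower with median ratio scaling, which left Gsta1 as the only called glutathione gene and took Keap1 from 0.11 to -0.16. Their count of 398 was 214 without control liver 1, 240 without control liver 2, 245 without phloridzin liver 1 and 635 without phloridzin liver 3. All 6 comparisons share groups with others, so their values are not independent.

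**Figure D4:**
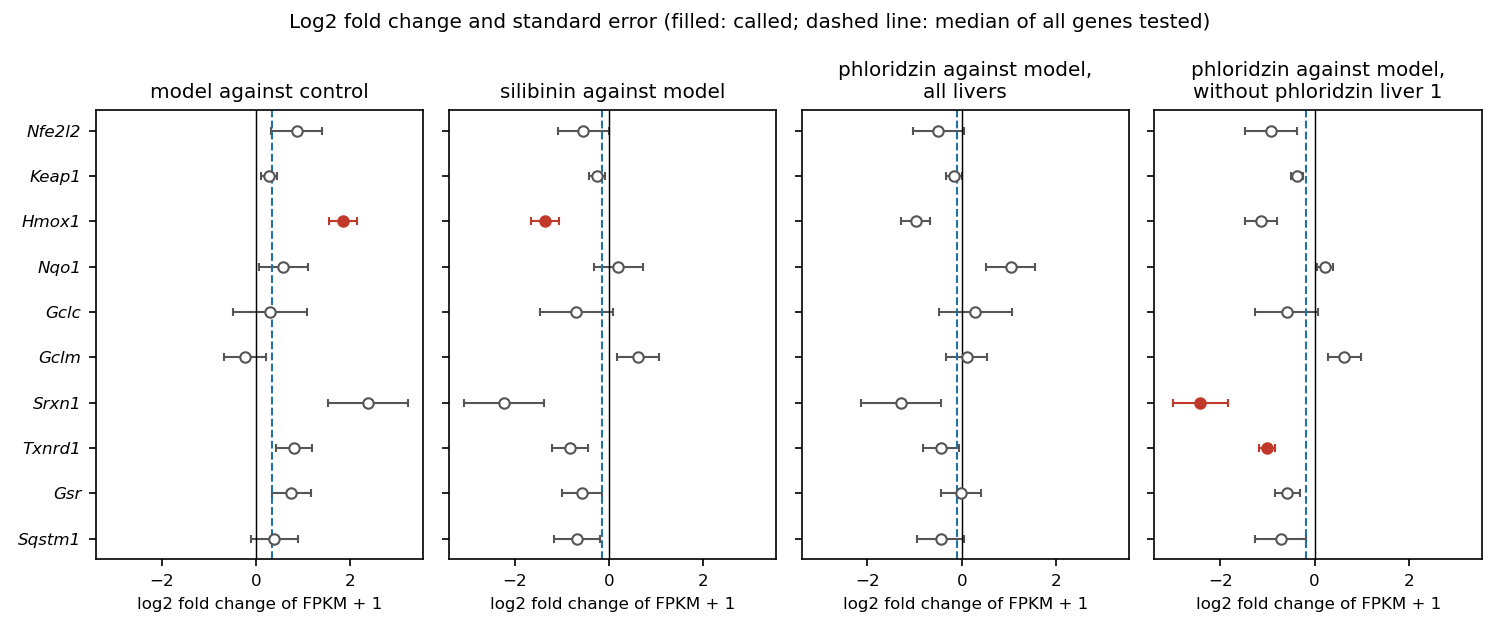
Log2 fold change of each of the 10 members on the scale of log2(FPKM + 1) with its standard error, for model against control, silibinin against model, and phloridzin against model with and without phloridzin liver 1, with called members filled and the median of all genes tested dashed. Hmox1 lies at 1.84 for model against control and at -1.36 for silibinin against model, and Srxn1 moves from -1.28 to -2.42 for phloridzin against model when phloridzin liver 1 is left out.

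The genes whose values were most like those of Hmox1, Srxn1 and Nqo1 over the 12 livers were looked up among 11611 genes by Pearson r of log2(FPKM + 1), as a description. For Hmox1 they were Csf1 (r = 0.981), which encodes a growth factor of macrophages, Bcl10 (0.966) and Tlnrd1 (0.966). Csf1 was at 2.73, 1.83 and 2.13 FPKM in the control livers, 4.66, 6.21 and 5.39 in the model livers, 2.73, 2.48 and 3.57 in the silibinin livers and 3.82, 3.82 and 3.24 in the phloridzin livers. Like Hmox1 it was highest in the 3 model livers, and the silibinin and phloridzin livers overlapped each other. For Srxn1 they were Mrfap1 (0.983), its fellow member Txnrd1 (0.966) and Hspd1 (0.965), a chaperone of mitochondria, and for Nqo1 H2-T22 (0.947), G3bp2 (0.941) and Hist1h2bp (0.937). Without phloridzin liver 1 the values for Hmox1 and Srxn1 stayed between 0.95 and 0.98, while those for Nqo1 became 0.79, 0.63 and 0.88. The likeness to Nqo1 thus rested partly on that liver.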

How the data were processed

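The authors deposited FPKM values for 169430 transcripts in 12 livers. The submitters' processing notes name HISAT2 2.1.0 and StringTie 1.3.3b and the mouse build mm10. Library sizes were recovered from the steps between values of transcripts of at least 1500 bases, where 98.6% to 99.1% of low values were whole fragment numbers within 0.05. FPKM was summed over all transcripts with the same gene symbol, and 13158 genes with a mean of at least 0.5 were tested by limma with its trend option, on log2(FPKM + 1), in 1 fit of the 4 groups, with p-values adjusted by the Benjamini-Hochberg method over all genes tested. The members and the 16 other gene lists, matched for 152 of 153 genes, were chosen with earlier results of these data known. The text names all members, at most 6 called genes per list by size, and the 3 genes most like Hmox1, Srxn1 and Nqo1. The fit was tested on simulated data. Alternatives were a pseudocount of 0.1, no filter or a minimum of 1, median ratio scaling, the same total in every liver, only the groups compared, a replicate block, the most abundant transcript, Ensembl transcripts only, voom on recovered fragments, no fold cutoff and each liver left out. The library kit is not stated to keep strand. Figures were drawn with matplotlib 3.10.9, values handled with pandas 2.3.3 and numpy 2.4.6 in Python 3.11.15, and fits made with limma 3.58.1 in R 4.3.3.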

Additional observations from a re-analysis of the deposited data

Results flagged for a closer look

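A noncoding transcript without a gene symbol, NONMMUT006557.2, lies over 461 exon bases of Txnrd1 on the same strand and entered no comparison. Its model group mean was 3.98 FPKM, with 4.42, 4.04 and 3.49 in the model livers, above the control livers at 0.557, 1.51 and 1.24. It was at 5.02 in phloridzin liver 1 and 0.686 and 0.903 in phloridzin livers 2 and 3, so it was high in phloridzin liver 1, as Txnrd1 was. Whether its fragments come from Txnrd1 was not tested.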

How the results depend on the processing

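Of 990 log2 fold changes of members under an alternative, 975 kept their side of the test's threshold, 12 passed it newly, 3 no longer passed it, and no called value changed sign. Values under an alternative below stand where a count moved, and the cause was not tested. The count of genes called for model against control was 2596 with a pseudocount of 0.1, 2545 by voom and 4594 with no fold cutoff. For silibinin against model it was 916 by voom and 1849 with no fold cutoff, and for phloridzin against model 702, 808 and 1691 with the pseudocount, by voom and with no fold cutoff. For phloridzin against silibinin it was 0 in a fit of only these groups and 5 for the most abundant transcript. For silibinin against control it was 828 with the pseudocount, 461 with the same total, 117 for the most abundant transcript, 569 by voom and 661 with no fold cutoff. For phloridzin against control it was 1103 with the pseudocount, 242 with median ratio scaling, 143 in a fit of only these groups, 190 for the most abundant transcript, 710 by voom, 1051 with no fold cutoff, and 194 with median ratio scaling and phloridzin liver 1 left out, an alternative chosen after the data were seen.

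Members called for model against control were 3 of 10 with the same total, beside 2032 of 13158 genes tested. They were 2 in a fit of only these groups, beside 1429 genes. For phloridzin against model they were 1 with the same total (beside 581 of all genes) and 1 by voom (beside 808). They were also 1 with median ratio scaling and phloridzin liver 1 left out (beside 516). For phloridzin against control they were 1 with the same total (beside 528).
When single livers were left out, the count of genes called was 1 to 6 for phloridzin against silibinin, 101 to 381 for silibinin against control and 214 to 635 for phloridzin against control. In the same fits 1247 to 1383 genes were called for model against control. For silibinin against model the count was 424 to 568, and for phloridzin against model 367 to 638. Members called were 1 to 2 for model against control, 0 to 1 for silibinin against model, 0 to 2 for phloridzin against model and 0 to 1 for phloridzin against control.
The replicate numbers do not pair the livers. Deviations of livers with the same number correlated from -0.09 to 0.10 (median 0.01, 18 pairs), and others from -0.17 to 0.15. With the number as a replicate block the counts were 1363, 508, 449, 3, 237 and 347 in the order of the report, with the members called unchanged in number.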
